A study of Mus musculus with 9 samples.

Results

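Mammalian mitochondria hold their own ribosome, which translates the few messages of the mitochondrial genome into core subunits of the respiratory chain. Its rRNAs are made inside the organelle, whereas every protein of its small and large subunit is encoded in the nucleus, made in the cytosol and imported. The genes described here are those protein genes: the protein-coding rows whose symbol is Mrpl or Mrps followed by a number and at most 1 letter. There were 78 of them among 54532 rows, of which 22046 are protein-coding, with 49 Mrpl and 29 Mrps symbols. ClpX is an ATPase of the mitochondrial matrix that unfolds proteins and feeds them to the protease ClpP. In mouse heart, ClpP is known to act on mitoribosome assembly through the rRNA chaperone Eral1, and the GTPase Noa1, another assembly factor, is a known ClpXP substrate.

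RNA was sequenced from primary mouse male germ cells, titled spermatocytes, at postnatal day 35. There were 3 ClpX cKO libraries (labelled ClpX knockout), 3 ClpP cKO libraries (labelled ClpP knockout) and 3 Control libraries (labelled WT). In the conditional knockouts (cKO), Stra8-Cre removed the gene in germ cells only, so somatic cells of the testis keep it, and the labels name neither the floxed alleles nor whether Control animals carried Cre. The labels give no method of cell isolation and do not say whether replicates came from separate animals, so p-values measure the spread between these libraries, which may be technical. The libraries held 14334436 to 17021685 gene reads, and 27148 to 39085 of these fell on the 78 genes.

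The targeted genes checked the labels. Clpx was at 15.6, 11.3 and 13.2 FPKM (fragment counts scaled by gene length and library depth) in ClpX cKO, against 59.3, 55.7 and 54.7 FPKM in Control. Clpp was at 5.16, 6.15 and 3.69 FPKM in ClpP cKO, against 9.36, 8.46 and 9.36 FPKM in Control. The partner gene changed as well. Clpx was lower than Control in ClpP cKO, at 40.3, 36.2 and 36.0 FPKM, and Clpp was higher than Control in ClpX cKO, at 12.8, 12.5 and 14.1 FPKM. Both of these changes passed the limma test described below. Markers of other cells were also measured in material labelled as germ cells, with no marker gene at 0. The summed FPKM of 12 Sertoli cell genes was 892 to 1227 in ClpX cKO, 697 to 770 in ClpP cKO and 483 to 508 in Control. The sum of 8 elongating spermatid genes was 1561 to 2404 in ClpX cKO, 4421 to 5294 in ClpP cKO and 7670 to 17070 in Control. Control 3 was the low Control library and ClpX cKO 1 the high ClpX cKO library in that sum, each lying towards the other groups.

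The genes were scattered over 17 chromosomes, with 11 on chromosome 11 and none on the mitochondrial chromosome. Many start back to back with another gene: 33 of the 78 (42.3%) had the start of a protein-coding gene on the other strand within 1000 bases, against 16.5% of the 12827 tested protein-coding genes. Mrps11 and Mrpl46 on chromosome 7 form such a pair with each other, and Mrps12 faces Sars2, the mitochondrial seryl-tRNA synthetase. Mrpl43 faces Twnk, the helicase of mitochondrial DNA replication, and Mrpl36 faces Ndufs6, a subunit of complex I.

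Their promoters were searched on both strands for 4 short motifs, in windows of 250 bases before to 50 bases after each RefSeq start (GRCm38.p6), with 75 windows for 69 of the 78 genes. The letters CCGGAAG, bound by ETS factors such as GABP, stood in 34.7% of these windows, against 11.6% of the 21263 windows of all protein-coding genes. The palindromic core motif of nuclear respiratory factor NRF1, with 1 base left free, stood in 17.3% against 6.38%, and AAGATGGCG, bound by YY1, in 10.7% against 1.83%. GABP and NRF1 are known activators of nuclear genes for mitochondrial proteins. TGATGNAA, a form of the element bound by ATF4 in the amino acid response, stood in 0 of the 75 windows and in 3.6% of all windows. The median GC content was 58.7% in the windows of these genes and 56.3% in all, which bears on how often GC-rich letters occur. A match is a description of the letters and not a site shown to be bound, and some of these windows overlap transcribed exons.

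The sites below show the ETS and NRF1 letters, in capitals on the strand of the gene. They are a choice from the members whose site lies upstream of the start and outside annotated exons. Not shown are such ETS sites in Mrpl22, Mrpl34, Mrpl48 and Mrps27, which did not pass the test in either knockout, and a second NRF1 site in Mrpl45. Mrpl52 and Mrpl43 are among the genes that rose in ClpX cKO, and Mrpl17, which has both motifs, Mrpl45 and Mrpl12 did not pass the test in either knockout. The ETS letters of Mrpl52 are on the opposite strand and so read as the reverse complement, as do the NRF1 letters of Mrpl12.
Mrpl52, chr14:54426850-54426879, plus strand, ETS: tcaagatgtcggCTTCCGGttttcccggca
Mrpl43, chr19:45006481-45006510, minus strand, ETS: ctcgcggtgactCCGGAAGcaaaactctcc
Mrpl17, chr7:105811307-105811336, minus strand, ETS: ggcatgctccgcCCGGAAGgcgcctcctcc
Mrpl17, chr7:105811117-105811146, minus strand, NRF1: aggctctgatGCGCACGCGCaaacgcggta
Mrpl45, chr11:97315586-97315615, plus strand, NRF1: gaagcctcctGCGCAGGCGCagctggctct
Mrpl12, chr11:120484546-120484575, plus strand, NRF1: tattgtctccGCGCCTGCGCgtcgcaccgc

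The promoters of Mrps24, with the largest increase in ClpX cKO on the scale tested, and of Mrps36, with the largest decrease, are shown with that of Mrpl58. The windows of the 10 largest increases and of the decreases were looked at, and in these 3 genes the 250 bases before the start hold no annotated exon. Capitals mark the ETS letters, which begin 17 bases before the start of Mrpl58. In these upstream bases none of the 4 motifs was found for Mrps36 or Mrps24. The YY1 letters of Mrps24 reach past its RefSeq start, which is 7979 bases from the gene start that the table uses.
Mrps24, chr11:5707702-5707951, minus strand: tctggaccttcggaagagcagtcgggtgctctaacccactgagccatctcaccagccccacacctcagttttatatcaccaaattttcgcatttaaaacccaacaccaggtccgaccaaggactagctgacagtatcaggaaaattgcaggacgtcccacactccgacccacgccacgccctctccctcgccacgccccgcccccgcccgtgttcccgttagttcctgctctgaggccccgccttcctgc
Mrps36, chr13:100744660-100744909, minus strand: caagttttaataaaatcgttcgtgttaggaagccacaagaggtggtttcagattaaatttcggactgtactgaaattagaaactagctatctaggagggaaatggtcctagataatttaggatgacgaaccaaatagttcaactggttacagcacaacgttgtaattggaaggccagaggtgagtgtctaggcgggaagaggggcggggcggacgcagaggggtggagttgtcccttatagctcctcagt
Mrpl58, chr11:115403502-115403751, plus strand: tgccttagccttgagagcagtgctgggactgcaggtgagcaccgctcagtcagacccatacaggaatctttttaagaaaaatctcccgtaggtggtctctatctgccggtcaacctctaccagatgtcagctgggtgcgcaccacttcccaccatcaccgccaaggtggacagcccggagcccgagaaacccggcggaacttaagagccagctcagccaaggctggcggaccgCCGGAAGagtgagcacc

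In Control, 77 of the 78 genes had a mean of at least 1 FPKM over the 9 libraries, and only these were tested. The Control means ran from 1.01 FPKM for Mrpl23 to 62.5 FPKM for Mrpl54, with a median of 9.37. The 5 highest were Mrpl54 (62.5 ± 8.14), Mrpl39 (41.3 ± 0.903), Mrpl41 (32.8 ± 1.09), Mrpl24 (31.5 ± 1.28) and Mrpl55 (29.9 ± 4.0), all of the large subunit (FPKM, SD, n = 3). Mrpl24 shares 26.3% of its exon bases with Rrnad1 on the other strand. Of these neighbours in the order, Mrpl41, Mrpl24 and Mrpl55 lay within each other's spread. The 5 lowest were Mrpl33 (2.51 ± 0.265), Mrpl19 (1.92 ± 0.0649), Mrps25 (1.66 ± 0.0454), Mrps35 (1.04 ± 0.216) and Mrpl23 (1.01 ± 0.235), and the last pair overlapped. Mrpl19 shares 36% of its exon bases with Gcfc2 on the other strand. The median was 11.5 FPKM over the 50 tested genes of the large subunit and 7.16 FPKM over the 26 of the small subunit.

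This order depends on the length that FPKM divides by. The table's length covers every annotated exon of a gene and exceeded its longest coding transcript by more than 2 times in 18 of the 78 genes. For Mrpl33 it was 15.3 times that transcript, and per coding transcript its Control level was 38.4 FPKM, 8th of 77 rather than 73rd. Mrps10 moved from rank 69 to 26, Mrpl23 from 77 to 65 and Mrpl42 from 52 to 10. Mrpl54 remained first at 85.4 FPKM, and Mrps25 and Mrpl19 remained among the lowest, at 1.79 and 2.09 FPKM. The ratio of a gene's FPKM between groups does not depend on the length, but a change on the log2 scale of FPKM + 1 does, and it is smaller where a long table length makes FPKM low. For Mrpl23 the mean FPKM was 2.10 times Control in ClpX cKO, while its change on that scale was 0.63.

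**Figure D1:**
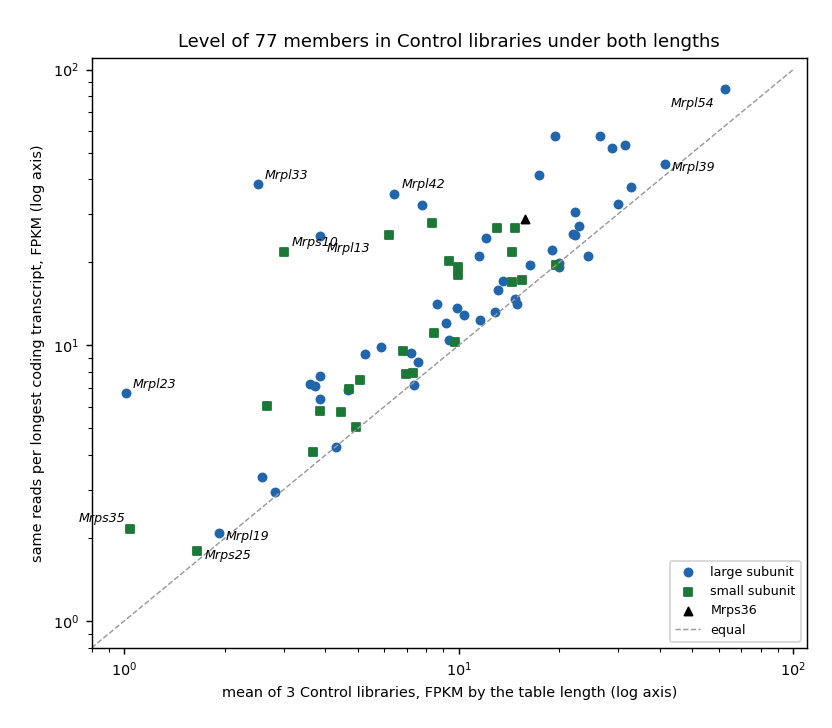
Each point is 1 of 77 mitochondrial ribosomal protein genes, with its mean FPKM over 3 Control libraries by the table's gene length (x axis, log) and the same reads per longest coding transcript (y axis, log), by subunit. Mrpl33, Mrpl23, Mrps10, Mrpl13 and Mrpl42 lie far above the dashed line of equality, while Mrpl54 is highest on both axes.

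Mrpl53 was listed at 0 in all 9 libraries. Of its exon bases 88% lie on the same strand as exons of Gm42688, a longer gene listed at 0.736 to 1.18 FPKM, so reads of Mrpl53 may not have been counted for it and its expression was not measured. In all, 33 of the 78 genes share exon bases with another gene, 18 of them over 10% of their own, and the sources used here do not say whether reads were counted by strand. Their values are uncertain to that extent. In Mrps25, 69.8% of exon bases overlap Nr2c2 on the other strand, and in Mrps34 63.4% overlap Mapk8ip3. Of the genes named only for their position, motif or call, Mrpl43 shares 33.4%, Mrps27 24.2%, Mrps6 19.9%, Mrpl12 13.1% and Mrpl46 12.2%. For genes with values the share is given beside them where it is over 10%.

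In ClpX cKO more of these genes rose than fell. The summed level of the 78 genes was 951, 998 and 1018 FPKM in ClpX cKO, against 980, 951 and 897 FPKM in Control, and the groups overlapped. That sum rests on the deposited scaling. As a share of each library's gene reads these genes held 0.223% to 0.246% in ClpX cKO and 0.189% to 0.194% in Control, without overlap. By gene, 31 rose, 8 fell and 38 did not pass of 77 (limma, Benjamini-Hochberg adjusted p under 0.05 over all 17266 tested genes). Among all tested genes 65.6% were called, 32.1% higher and 33.5% lower, and among the tested protein-coding genes 70.6%, with 40.1% higher and 30.5% lower. The shares here were 50.6% called, 40.3% higher and 10.4% lower, so the share that rose was close to that of protein-coding genes at large and the share that fell was smaller. The median change was 0.18 on the log2 scale of FPKM + 1, against 0.11 for tested protein-coding genes and -0.00077 for all tested genes. Of the 77 changes 7 passed 1.5-fold on that scale, and 1, Mrps36, passed 2-fold. As ratios of mean FPKM, 14 passed 1.5-fold and 3 passed 2-fold, which were Mrpl23 (2.10), Mrps24 (2.06) and Mrps36 (0.424). The 3 ClpX cKO libraries lay above all 3 Control libraries for 32 genes and below them for 11, that is 41.6% and 14.3%, against 34.8% and 35% of all tested genes. That background includes genes that are not protein-coding, and this share was not counted for protein-coding genes alone, of which more were called higher. Scaling each library by its own total of gene reads moved the median of all genes to 0.18 and that of these genes to 0.38, with 50 up and 1 down, and quantile normalization gave 36 up and 4 down. Without ClpX cKO 3 the increases numbered 20. The calls over all tested genes moved in these alternatives too, from 5548 up and 5778 down in the main fit. Scaling by own totals gave 7366 up and 4265 down, quantile normalization 6299 and 4689, and the fit without ClpX cKO 3 gave 4742 and 5083.

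**Figure D2:**
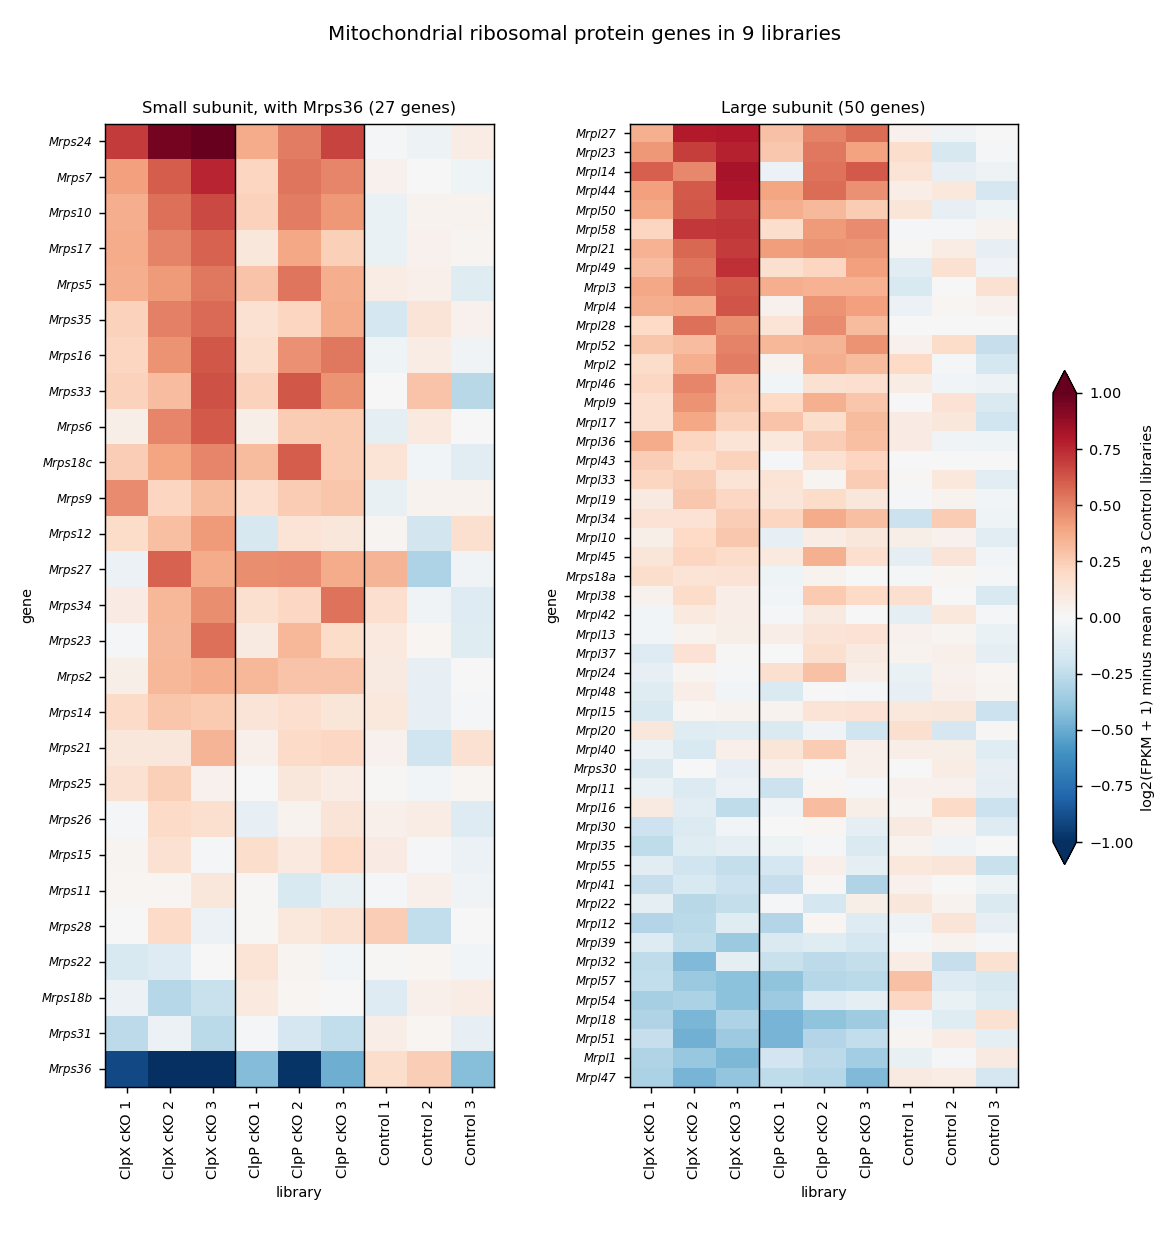
Each row is a tested gene, each column a library (ClpX cKO, ClpP cKO, Control), and colour gives log2(FPKM + 1) minus the mean of the 3 Control libraries, cut at 1 in either direction. Rows are ordered by the change in ClpX cKO, with Mrps24 at the top and Mrps36 at the bottom of the left panel. ClpX cKO 1 is paler than ClpX cKO 2 and 3 in most of the upper rows.

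Of the 26 tested genes of the small subunit 13 rose, 0 fell and 13 did not pass in ClpX cKO, with a median log2 change of 0.30 and 23 changes above 0. Among all tested protein-coding genes 40.1% rose and 30.5% fell. At an unadjusted p under 0.05, 0 were lower and 14 higher in limma, where 11922 of all 17266 tested genes passed in either direction. Limma voom on recovered reads also gave 13 up and 0 down. The classes by subunit and origin were assigned by hand from general knowledge of the mitoribosome. These calls lay mainly among the 16 proteins classed as having a bacterial homologue, of which 12 rose and all 16 had a change above 0. Of the 10 small subunit proteins classed as specific to mitochondria, 1 rose, Mrps35, and 9 did not pass (median 0.22). These 10 include Mrps18b (-0.19), although its paralogue Mrps18c was classed with the 16. With Mrps18b placed beside Mrps18c, not every change in that class would be above 0. Of the 50 genes of the large subunit 18 rose, 7 fell and 25 did not pass, with a median of 0.07. The difference between the subunits, or between the origins, was not tested. The 13 small subunit increases were 7 without ClpX cKO 3 and 14 without Control 3 and ClpX cKO 1 together, and at most 1 small subunit gene was called lower in any alternative. The split by origin depended on the processing. Scaled by own totals of gene reads, 15 of the 16 with a bacterial homologue and 7 of the 10 others rose. Without ClpX cKO 1 these counts were 12 and 4.

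Mrps24, the protein uS3m at the mRNA entry of the small subunit, had the largest increase on the log2 scale of FPKM + 1. It was at 8.87, 10.8 and 11.8 FPKM in ClpX cKO, against 5.002, 4.87 and 5.40 FPKM in Control, without overlap. The log2 change was 0.91 (SE 0.11, limma adjusted p = 0.00047), and this call held in every alternative run. By limma voom on recovered reads Mrps24 was at 1.05, below Mrpl23 at 1.10. Mrps24 shares 15.4% of its exon bases with Urgcp on the same strand, which was at 5.48, 6.07 and 5.62 FPKM in ClpX cKO and 6.23, 4.48 and 5.09 FPKM in Control and did not pass the test.

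Other small subunit genes with a bacterial homologue rose by less. Mrps7, the protein uS7m of the subunit's head, was at 13.3, 15.4 and 17.1 FPKM in ClpX cKO, against 10.04, 9.73 and 9.42 FPKM in Control (log2 change 0.59, SE 0.11, limma adjusted p = 0.0019). Its exons overlap those of other genes by 11.9%. Mrps10, or uS10m, was at 4.15, 4.86 and 5.33 FPKM in ClpX cKO and 2.83, 3.103 and 3.096 FPKM in Control, a log2 change of 0.52. Mrps5, or uS5m, stood at 6.32, 6.65 and 7.24 FPKM in ClpX cKO and 5.0004, 4.92 and 4.24 FPKM in Control, a log2 change of 0.44. In each of these the groups did not overlap and ClpX cKO 1 was the lowest ClpX cKO library. Mrps16 (0.43) and Mrps18c (0.38) rose too, and Mrps18c shares 23.2% of its exon bases. The 4 genes of this class that did not pass were Mrps21 at 0.19, Mrps15 at 0.05, Mrps11 at 0.05 and Mrps28 at 0.04.

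In the large subunit, Mrpl27 and Mrpl23 had the largest changes on that scale, and their order depends on the scale. Mrpl27, or bL27m, reaches towards the peptidyl transferase centre in bacteria. It was at 9.46, 13.2 and 13.3 FPKM in ClpX cKO, against 7.44, 6.98 and 7.15 FPKM in Control (log2 change 0.65, SE 0.13, limma adjusted p = 0.0024). Mrpl23, or uL23m of the exit tunnel, was at 1.71, 2.23 and 2.42 FPKM in ClpX cKO and 1.26, 0.791 and 0.992 FPKM in Control (0.63, SE 0.14, limma adjusted p = 0.0036). With a pseudocount of 0.1 Mrpl23 was at 1.005 and Mrpl27 at 0.71. Mrpl14, or uL14m at the face between the subunits, stood at 7.57, 6.92 and 9.02 FPKM in ClpX cKO and 5.22, 4.35 and 4.48 FPKM in Control (0.63, SE 0.18, limma adjusted p = 0.012). Mrpl14 rests on the fewest reads of the tested genes, 97.2 per library on average. It shares 11.2% of its exon bases, and without Control 3 and ClpX cKO 1 together its change of 0.63 did not pass (limma adjusted p = 0.053). None of these 3 genes overlapped between the groups.

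Mrpl44 carries a ribonuclease III fold, and its mutation causes a cardiomyopathy in people. It was at 10.3, 11.99 and 13.9 FPKM in ClpX cKO, against 7.90, 8.16 and 6.56 FPKM in Control (log2 change 0.61, SE 0.12, limma adjusted p = 0.0020). Mrpl50, known only from mitochondria, was at 5.90, 7.11 and 7.57 FPKM in ClpX cKO and 4.76, 3.99 and 4.13 FPKM in Control (0.57, SE 0.10, limma adjusted p = 0.0014). Mrpl58, the peptidyl-tRNA hydrolase that frees stalled mitoribosomes, was at 3.17, 4.85 and 4.91 FPKM in ClpX cKO and 2.54, 2.55 and 2.69 FPKM in Control (0.55, SE 0.15, limma adjusted p = 0.0098). The groups were apart in all 3 genes, with ClpX cKO 1 closest to Control. Mrpl21 (bL21m) and Mrpl49 (mL49) rose by 0.54 and 0.53.

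**Figure D3:**
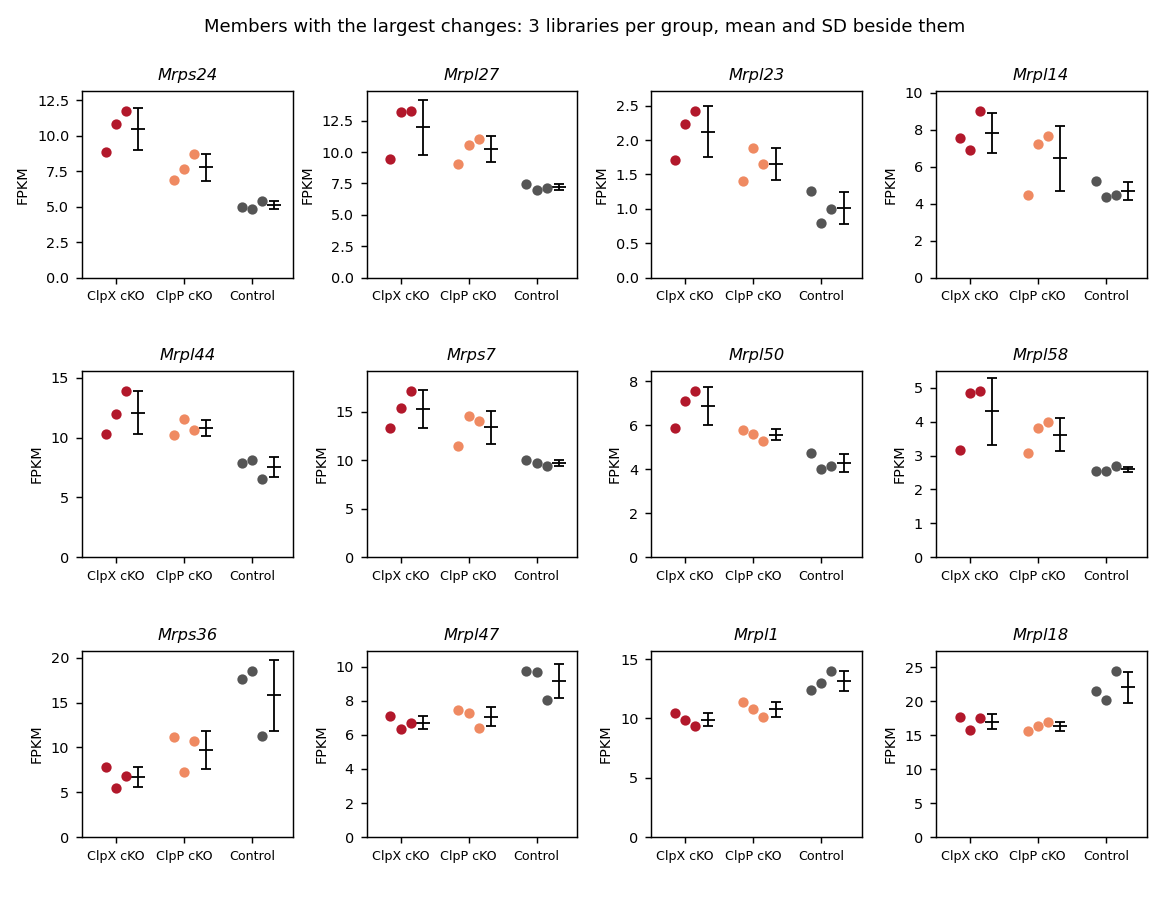
Points are the FPKM of single libraries, ordered by replicate number within ClpX cKO, ClpP cKO and Control, with the mean and SD of the 3 beside them and axes from 0. The 8 genes in the upper rows and the 4 below are those with the largest increases and 4 of the decreases in ClpX cKO. In Mrps36, Control 3 at 11.2 FPKM equals ClpP cKO 1 to 3 digits, and Mrpl14 has 1 ClpP cKO library at 4.46 FPKM among the Control libraries.

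The 8 decreases in ClpX cKO were led by the gene that is not a ribosomal protein. Mrps36 keeps a small subunit symbol, but its product is now known as the adaptor of the 2-oxoglutarate dehydrogenase complex of the citric acid cycle. It was at 7.78, 5.47 and 6.85 FPKM in ClpX cKO, against 17.6, 18.6 and 11.2 FPKM in Control. All ClpX cKO libraries lay below all Control libraries, and Control 3 was the closest of them. The log2 change was -1.11 (SE 0.22, limma adjusted p = 0.0023), and it was the one decrease still called under scaling by own totals of gene reads. Its pseudogenes Mrps36-ps1 and Mrps36-ps2 held 2 to 19 reads per library, and Mrps36-ps3 was listed at 0. How reads that match both gene and pseudogene were counted is not given in the sources used here.

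The other 7 decreases were all in the large subunit and were between -0.39 and -0.25 on the log2 scale. Mrpl1, which forms the mobile stalk beside the tRNA exit, was at 10.5, 9.84 and 9.37 FPKM in ClpX cKO, against 12.4, 12.99 and 14.02 FPKM in Control (log2 change -0.38, SE 0.07, limma adjusted p = 0.0025). Mrpl47, or uL29m at the exit tunnel, was at 7.10, 6.33 and 6.70 FPKM in ClpX cKO and 9.77, 9.66 and 8.02 FPKM in Control (-0.39), and shares 24.2% of its exon bases. Mrpl51 (-0.36), Mrpl18 (-0.35, with 10.1% of its exon bases shared), Mrpl54 (-0.35), Mrpl57 (-0.34) and Mrpl39 (-0.25) fell as well. The groups did not overlap in any of these 7 genes. Under quantile normalization Mrpl39 was at 0.12 and Mrpl54 at 0.08, and the calls of Mrpl51 and Mrpl18 were lost as well. Under scaling by own totals all 7 calls were lost with changes between -0.19 and -0.03. Without Control 1 the changes of Mrpl57 and Mrpl54 were -0.20 and -0.25, and without ClpX cKO 3 they were -0.31 and -0.33, none of which passed. Without ClpX cKO 2 Mrpl57 was at -0.33 and did not pass. Its call was also lost without a filter on low values and in the fit of only the 6 libraries compared.

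Symbol and subunit also differ in Mrps18a and Mrps30, which sit in the large subunit, while Mrps18b and Mrps18c, the paralogues of Mrps18a, sit in the small one. Mrps18a was at 8.88, 8.62 and 8.67 FPKM in ClpX cKO and 7.70, 7.86 and 7.69 FPKM in Control, without overlap (log2 change 0.15, SE 0.06, limma adjusted p = 0.043). Mrps18b was at 9.52, 7.96 and 8.36 FPKM in ClpX cKO and 9.03, 10.3 and 10.5 FPKM in Control, which overlapped, and its change of -0.19 did not pass. Mrps18b shares 30.5% of its exon bases with an antisense gene. Mrps30 was at 3.40, 3.88 and 3.60 FPKM in ClpX cKO and 3.89, 4.11 and 3.60 FPKM in Control and did not pass either.

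In ClpP cKO the same comparison gave fewer calls, in which 17 genes rose, 5 fell and 55 did not pass of 77 (limma, adjusted over all tested genes). Among all tested genes 44.7% were called, 20.7% higher and 24% lower, and among the tested protein-coding genes 49.3%, with 25.8% higher and 23.5% lower. Of these genes 28.6% were called, 22.1% higher and 6.49% lower. The summed level was 929, 1031 and 1001 FPKM in ClpP cKO, against 980, 951 and 897 FPKM in Control, and the groups overlapped. As a share of each library's gene reads it was 0.217% to 0.239% in ClpP cKO and 0.189% to 0.194% in Control, without overlap. The median change was 0.14 (log2), against 0.08 for tested protein-coding genes and 0.01 for all tested genes. Both comparisons use the same Control libraries, so their values are given side by side and are not independent. ClpP cKO libraries lay above all Control libraries for 30 genes and below them for 7, that is 39% and 9.09%, against 31.2% and 30.5% of all tested genes. Here too the share was not counted for protein-coding genes alone, of which more were called higher than of all tested genes. Scaling by own totals moved the median of all genes to 0.16 and that of these genes to 0.30, with 42 up and 0 down. Omitting Control 1, Control 2 or Control 3 left 9, 9 and 7 increases and 2, 1 and 5 decreases. Omitting ClpP cKO 2 left 2 increases and 2 decreases, and omitting ClpP cKO 3 left 5 increases and 2 decreases. Over all tested genes the main fit gave 3573 increases and 4149 decreases, and scaling by own totals gave 5992 and 2404. There, omitting Control 1, Control 2 or Control 3 left 1914, 2212 and 2696 increases. Omitting ClpP cKO 2 left 1593 increases and 2024 decreases over all tested genes, and omitting ClpP cKO 3 left 1771 and 2269.

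By subunit, 8 of the 26 tested small subunit genes rose in ClpP cKO and 0 fell, with a median of 0.22. Among all tested protein-coding genes 25.8% rose and 23.5% fell, with a median of 0.08. At an unadjusted p under 0.05, 0 were lower and 11 higher in limma, where 9415 of all 17266 tested genes passed in either direction. Limma voom on recovered reads gave 9 up and 0 down. All 8 called in the main fit are among the 16 with a bacterial homologue. Scaled by own totals of gene reads, 11 of these 16 and 4 of the 10 others rose in ClpP cKO. Of the 50 large subunit genes 9 rose and 4 fell, with a median of 0.11. Omitting Control 1, Control 2 or Control 3 gave 5, 4 and 4 small subunit increases, and omitting ClpP cKO 2 or ClpP cKO 3 gave 1 and 3.

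**Figure D4:**
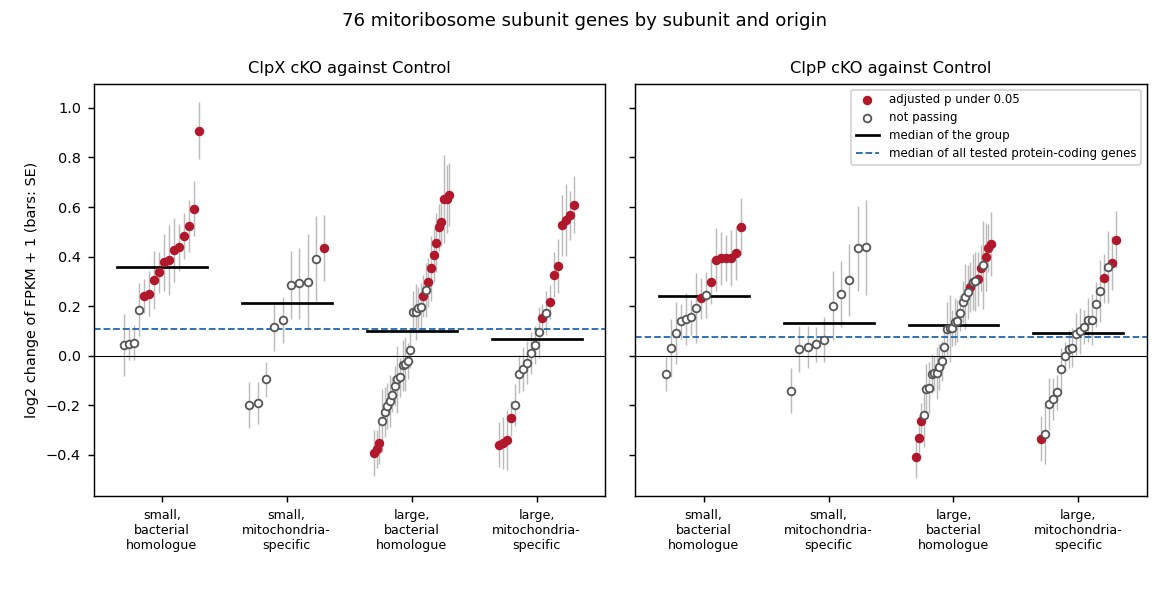
Each point is the log2 change of 1 of 76 mitoribosome genes (y axis, bars are SE), filled where the limma adjusted p was under 0.05, in ClpX cKO against Control (left) and ClpP cKO against Control (right). The black line is the median of each class and the dashed line that of all tested protein-coding genes (0.11 left, 0.08 right). In the small subunit no filled point lies below 0 in either panel.

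On the log2 scale of FPKM + 1 Mrps24 also led the increases in ClpP cKO, at 6.88, 7.67 and 8.75 FPKM against 5.002, 4.87 and 5.40 FPKM in Control (log2 change 0.52, SE 0.11, limma adjusted p = 0.012). With a pseudocount of 0.1 it was at 0.59, below Mrpl23 at 0.66. Mrpl21 was at 7.35, 7.51 and 7.49 FPKM in ClpP cKO and 5.31, 5.57 and 4.89 FPKM in Control (0.43, SE 0.10, limma adjusted p = 0.012). Of the members named in ClpP cKO, only these 2 were called in every alternative run. Mrpl44 (0.47), Mrpl27 (0.45), Mrps7 (0.41), Mrpl23 (0.40), Mrps18c (0.39), Mrps5 (0.39), Mrps10 (0.39) and Mrps16 (0.39) also rose. Without ClpP cKO 2 none of these 8 passed, at 0.42, 0.43, 0.35, 0.34, 0.29, 0.32, 0.33 and 0.35 in the same order. Without ClpP cKO 3 Mrpl27 was at 0.40, Mrps7 at 0.38, Mrpl23 at 0.40, Mrps10 at 0.37 and Mrps16 at 0.32, and none of these passed. Omitting a Control library ended further calls among these 8, with changes of 0.32 to 0.47.

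Mrps36 was at 11.2, 7.32 and 10.7 FPKM in ClpP cKO, against 17.6, 18.6 and 11.2 FPKM in Control. ClpP cKO 1 and Control 3 lay next to each other. The log2 change was -0.63 (SE 0.22, limma adjusted p = 0.041). That call was lost on omitting ClpP cKO 2 (-0.46), ClpP cKO 3 (-0.71), Control 1 (-0.55) or Control 2 (-0.51). It was also lost on omitting ClpX cKO 3, which left the change at -0.63 and raised the limma adjusted p to 0.056. The call did not hold either without a filter on low values, under scaling by own totals, or in the fit of only the 6 libraries compared. Mrpl18, a protein of the central protuberance, was at 15.6, 16.4 and 17.0 FPKM in ClpP cKO and 21.5, 20.1 and 24.5 FPKM in Control (-0.41, SE 0.08, limma adjusted p = 0.010), and its call was lost in 1 alternative, scaling by own totals. Mrpl51 (-0.33), Mrpl47 (-0.33) and Mrpl1 (-0.26) fell as well. Without ClpP cKO 2 they were at -0.36, -0.35 and -0.27 and none of them passed.

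Between ClpX cKO and ClpP cKO 0 of the 77 genes were called higher or lower, where 0.104% of all tested genes were called (limma). At an unadjusted p under 0.05 there were 8 of these genes, 10.4%, against 27.8% of all tested genes, and limma voom on recovered reads also called 0. The median difference was 0.02 (log2), with a range of -0.47 for Mrps36 to 0.39 for Mrps24. Mrps24 was at 8.87, 10.8 and 11.8 FPKM in ClpX cKO and 6.88, 7.67 and 8.75 FPKM in ClpP cKO, without overlap (log2 difference 0.39, SE 0.11, limma adjusted p = 0.099). ClpX cKO 1 decided this count. Without it, 2060 genes were called higher and 2698 lower among all tested, and of these genes 6 were higher and 1 lower. The 6 were Mrps24 (0.49), Mrpl49 (0.37), Mrps6 (0.36), Mrpl58 (0.35), Mrpl27 (0.35) and Mrpl50 (0.34), and the 1 was Mrps18b (-0.29). The 7 genes are named here after their values were seen.

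The 5 mitoribosome proteins with other symbols were split, and 2 rose, 1 fell and 2 did not pass in both knockouts. Gadd45gip1, which is mL64 of the large subunit, was at 7.02, 8.68 and 7.99 FPKM in ClpX cKO, 6.55, 6.11 and 6.66 FPKM in ClpP cKO and 5.26, 5.25 and 4.77 FPKM in Control (log2 change 0.54 in ClpX cKO, 0.29 in ClpP cKO). Chchd1, or mS37, rose by 0.25 in ClpX cKO and by 0.22 in ClpP cKO. Dap3, the GTP-binding protein mS29 of the small subunit, was at 25.5, 25.3 and 24.6 FPKM in ClpX cKO, 26.2, 28.3 and 26.5 FPKM in ClpP cKO and 31.6, 32.6 and 29.4 FPKM in Control. It was called lower in both knockouts (-0.30 and -0.20), so a small subunit gene outside the symbol pattern did fall.

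The factors that build and modify the mitoribosome moved both ways. Of 25 tested, 13 rose, 5 fell and 7 did not pass in ClpX cKO (median 0.27), and 8 rose, 3 fell and 14 did not pass in ClpP cKO (median 0.26). Eral1, which binds the small subunit rRNA, was at 11.04, 13.7 and 13.8 FPKM in ClpX cKO, 11.9, 13.8 and 13.01 FPKM in ClpP cKO and 9.27, 9.27 and 10.3 FPKM in Control. It rose by 0.38 in ClpX cKO (SE 0.10, limma adjusted p = 0.0087) and by 0.39 in ClpP cKO (SE 0.10, limma adjusted p = 0.016). The ClpP cKO call was lost on omitting Control 1 (0.37), ClpP cKO 2 (0.35) or ClpP cKO 3 (0.39). Noa1 was at 4.83, 6.18 and 5.66 FPKM in ClpX cKO, 3.58, 4.34 and 3.30 FPKM in ClpP cKO and 3.26, 3.18 and 2.48 FPKM in Control. It rose by 0.72 in ClpX cKO (SE 0.13, limma adjusted p = 0.0013), and its change of 0.25 in ClpP cKO did not pass. The difference between the knockouts, 0.47, did not pass either (limma adjusted p = 0.089).

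Mpv17l2, an inner membrane protein needed for mitoribosome assembly, had the largest increase of these factors. It was at 8.98, 12.8 and 11.8 FPKM in ClpX cKO, 8.99, 7.88 and 8.75 FPKM in ClpP cKO and 5.02, 5.10 and 4.38 FPKM in Control, a log2 change of 1.05 in ClpX cKO and 0.71 in ClpP cKO. Mrm1, an rRNA methyltransferase, rose by 0.82 and 0.53, and Rbfa, a factor of small subunit maturation, by 0.71 and 0.46. Nsun4, the methyltransferase that also joins the subunits, went the other way. It was at 20.6, 11.99 and 12.6 FPKM in ClpX cKO, 29.7, 21.2 and 23.7 FPKM in ClpP cKO and 55.8, 56.1 and 41.3 FPKM in Control (log2 change -1.72 in ClpX cKO, -1.01 in ClpP cKO). Control 3 and ClpX cKO 1 lay towards the other groups in Nsun4, as they did in the elongating spermatid sum.

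Among 14 tested factors of mitochondrial translation 9 rose, 2 fell and 3 did not pass in ClpX cKO (median 0.35), and 7 rose, 1 fell and 6 did not pass in ClpP cKO (median 0.28). The shares of tested protein-coding genes that rose were 40.1% in ClpX cKO and 25.8% in ClpP cKO, and 30.5% and 23.5% fell. Oxa1l, the insertase for new mitochondrial proteins, was at 7.67, 9.15 and 10.9 FPKM in ClpX cKO, 7.70, 7.74 and 7.32 FPKM in ClpP cKO and 5.05, 5.38 and 5.55 FPKM in Control (log2 change 0.68 in ClpX cKO, 0.44 in ClpP cKO). The release factor Mtrf1l rose by 0.68 and 0.36, and Lrpprc, which stabilizes mitochondrial messages, by 0.46 and 0.33. Mrrf, the ribosome recycling factor, was called lower in both, at -0.46 and -0.30.

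Of the 2 rRNAs that the mitoribosomal proteins bind, mt-Rnr2 rose far more than any of the proteins' own messages, and mt-Rnr1 lay closer to them. The largest increase among those messages was that of Mrps24, at 0.91 in ClpX cKO and 0.52 in ClpP cKO. The large subunit rRNA gene mt-Rnr2 was at 551, 685 and 700 FPKM in ClpX cKO, 357, 315 and 318 FPKM in ClpP cKO and 63.3, 67.1 and 74.7 FPKM in Control, a log2 change of 3.21 in ClpX cKO and 2.26 in ClpP cKO. The small subunit rRNA gene mt-Rnr1 was at 96.1, 141 and 142 FPKM in ClpX cKO, 107, 83.7 and 88.0 FPKM in ClpP cKO and 49.5, 50.9 and 62.6 FPKM in Control, a log2 change of 1.19 in ClpX cKO and 0.76 in ClpP cKO. All 4 changes passed the limma test. Of the 13 mitochondrially encoded messages 13 rose in ClpX cKO (median 1.39) and 8 in ClpP cKO (median 0.55), and none fell by limma or by an unadjusted p under 0.05. The library kit selects for mRNA, and levels of rRNA in such libraries can depend on that selection.

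**Figure D5:**
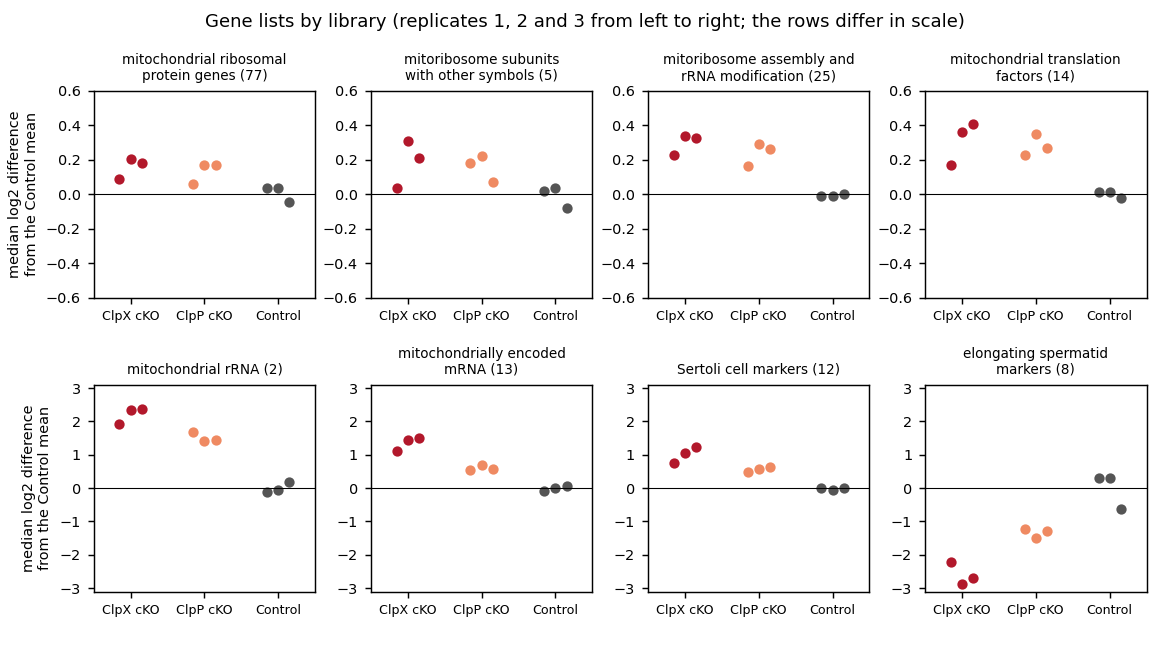
Each point is a library's median, over the genes of a list, of log2(FPKM + 1) minus the mean of the 3 Control libraries, with the number of genes in brackets and the list in each title. In the upper row (axis from -0.6 to 0.6) the mitochondrial ribosomal protein genes lie at 0.09 to 0.20 in ClpX cKO, 0.06 to 0.17 in ClpP cKO and -0.04 to 0.04 in Control. In the lower row (axis from -3.1 to 3.1) mitochondrial rRNA, mitochondrial mRNA and Sertoli cell markers lie higher and elongating spermatid markers lower in both knockouts.

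The marker lists of cell types had medians farther from 0 than that of the mitoribosome genes in the same libraries, and early prophase markers came closest to it. Calls among tested protein-coding genes were 40.1% higher and 30.5% lower in ClpX cKO, and 25.8% higher and 23.5% lower in ClpP cKO. The Sertoli cell markers had medians of 1.01 in ClpX cKO and 0.55 in ClpP cKO, and all 12 rose in both. The spermatogonial markers had medians of 0.73 and 0.40, with 7 of 9 up and 1 down in ClpX cKO and 5 of 9 up in ClpP cKO. Elongating spermatid markers lay at -2.61 and -1.34, and all 8 fell in both, as did all 8 round spermatid markers. Of the 8 pachytene and diplotene markers 6 fell in both. The 8 early prophase markers went both ways, with 4 up and 2 down in ClpX cKO (median 0.29) and 4 up and 1 down in ClpP cKO (median 0.25). Immune markers rose in 6 of 6 in ClpX cKO and 3 of 6 in ClpP cKO and stromal markers in 5 of 6 and 2 of 6. Leydig cell markers rose in 2 of 7 in ClpX cKO. In ClpX cKO 1 the median of the mitoribosome genes was 0.09, against 0.20 and 0.18 in ClpX cKO 2 and 3, and its Sertoli median was 0.74, against 1.04 and 1.22. In these bulk libraries, fewer cells of a type and less RNA per cell cannot be told apart. The part of cell makeup in the changes of the mitoribosome genes was not tested.

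The calls were also counted by features that the symbols do not encode. As a background for these counts, increases made up 40.1% and decreases 30.5% of tested protein-coding genes for ClpX cKO. For ClpP cKO that background was 25.8% increases and 23.5% decreases. Of the 45 tested genes that share no exon bases with another gene, 16 rose and 5 fell in ClpX cKO and 9 rose and 2 fell in ClpP cKO. Of the 32 that share them, 15 rose and 3 fell in ClpX cKO and 8 rose and 3 fell in ClpP cKO. In ClpX cKO the median log2 change was 0.095 for the 45 genes and 0.23 for the 32, against 0.107 for tested protein-coding genes. Of the 6 called increases past 1.5-fold in ClpX cKO, 5 were among the 32. Of the 33 with a head-to-head neighbour 15 rose and 5 fell in ClpX cKO, against 16 up and 3 down of the 44 without one. Of the 25 tested genes with the ETS letters 10 rose and 3 fell in ClpX cKO, and of the 43 with a window but without them 19 rose and 4 fell. For the NRF1 letters these counts were 4 up and 2 down of 13 with them and 25 up and 5 down of 55 without. These splits are described by counts, and their differences were not tested.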

How the data were processed

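The authors deposited FPKM per gene for 9 libraries, against GRCm38 (mm10) per the submitters' processing notes. The aligner, the counter, the annotation and the strand setting are not given in the sources used here. The table gives each gene's length in bases per the file headers. Multiplying FPKM by length gave whole reads, within 0.01 of a read, for 100% of values, and these reads served for depth and an alternative. The depth that the FPKM scaling implies was 1.07 times the summed gene reads in ClpX cKO, 1.05 times in ClpP cKO and 0.919 times in Control. How that depth was set is not given in the sources used here. Median-of-ratios factors of the deposited values were 1.011 in all 9 libraries. Scaling by them thus divided all libraries alike and could hardly change a call.

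The 17266 genes whose mean reached 1 FPKM were tested as log2(FPKM + 1), where a fold understates the change of low genes. One limma 3.58.1 model (R 4.3.3) held all 9 libraries, with a variance trend, 6 residual degrees of freedom and two-sided p-values, Benjamini-Hochberg adjusted over all tested genes and called under 0.05. The code was tested on simulated data. The members and lists were chosen with earlier results of these data known. Named were the 10 largest called increases and decreases per knockout, 5 each way between knockouts, the 5 highest and lowest in Control, Mrps18a, Mrps18b, Mrps30, Mrps36, and of the partner lists Eral1, Noa1, both rRNAs and up to 4 called genes with the smallest adjusted p. Exon overlap and transcript length came from GENCODE M21, where 73 of 78 members had the table's start and end, and promoters from RefSeq. Python 3.11.15 with pandas 2.3.3 and matplotlib 3.10.9 made tables and plots. Alternatives were a pseudocount of 0.1, no filter or a minimum mean of 5 FPKM, scaling by median of ratios, quantiles or own totals, limma voom on the recovered reads, a fit of the 6 libraries of each comparison, a block for replicate number, protein-coding genes only, and omission of libraries.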

Additional observations from a re-analysis of the deposited data

How the results depend on the processing

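In ClpP cKO against Control, the 17 genes called higher were 7 without a filter on low values and 42 when scaled by own totals of gene reads, and the 5 called lower were 3 under quantile normalization and 0 when scaled by own totals. Over all tested genes, the 3573 increases were 2398 of 41170 without the filter, and the 4149 decreases were 2769 under quantile normalization. The members' median log2 change of 0.14 was 0.21 under quantile normalization and 0.30 when scaled by own totals. In ClpX cKO against Control, the 31 genes called higher were 50 when scaled by own totals, the 8 called lower were 4 under quantile normalization and 1 when scaled by own totals, and the median of 0.18 was 0.25 and 0.38 under those scalings. The changes of Mrpl39 and Mrpl54 in ClpX cKO turned to 0.12 and 0.079 under quantile normalization. Between the knockouts, leaving out Control 3 and ClpX cKO 1 together gave 6 genes higher and 1 lower, where 0 were called with all libraries. Over all tested genes that fit called 2177 higher and 2972 lower. The cause of these shifts was not tested.

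Leaving out 1 library at a time gave 2 to 21 genes higher and 1 to 6 lower in ClpP cKO (medians 0.11 to 0.16), 20 to 35 higher and 6 to 10 lower in ClpX cKO (medians 0.16 to 0.20), and 0 to 6 higher and 0 to 1 lower between the knockouts (medians -0.01 to 0.05). The lowest ClpP cKO count came without ClpP cKO 2. All 31 increases and all 8 decreases of ClpX cKO had the same sign in each of these omissions.

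Limma voom on the recovered reads, 100% of them whole, called 5717 genes higher and 5659 lower in ClpX cKO, 3955 and 4066 in ClpP cKO, and 24 and 17 between the knockouts. The replicate number as a block gave 28 up and 8 down of the members in ClpX cKO, 19 and 5 in ClpP cKO and 0 and 0 between the knockouts. Correlations of deviations between libraries of the same number ran from -0.07 to 0.23, and in no comparison were all 3 over 0.1, so the numbers were not taken to pair the libraries. Whether they share an origin is not given in the labels. Depth limits single genes most: the tested members held 97.2 to 1520 reads per library on average.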
